A study of Mus musculus with 12 samples.

Results

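Keratins are the intermediate filament proteins of epithelial cells. A filament forms only when an acidic type I chain pairs with a basic type II chain, and the pair in use marks the epithelium. KRT8 with KRT18 or KRT19 serves the single layer of cells that lines the gut, KRT5 with KRT14 the basal layer of stratified epithelia such as skin, KRT1 with KRT10 the skin layers above it, and KRT4 with KRT13 the upper layers of moist linings such as the oesophagus. Further pairs build hair, its sheaths and nail.

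The members are the genes whose symbol is Krt followed by digits alone: 46 of the 30263 genes in the colon tables and 1, Krt4, of the 357 genes in the CD8 tables. By textbook class the 46 comprise 5 simple keratins (Krt7, Krt8, Krt18, Krt19 and Krt20), 16 squamous keratins of stratified epithelia, 19 keratins of hair, its sheaths and nail, and 6 others set in none of these classes. The 12 libraries form 4 groups of 3, from C57BL/6 mice. The colon groups are whole colons labelled S1PR4 KO and whole colons labelled WT, both at 84 days of treatment with azoxymethane (AOM, 10 mg/kg), a carcinogen, and dextran sulfate (DSS, 0.5% in the drinking water), an irritant. The CD8 groups are PyMT tumors of S1PR4 KO and of WT mice that received no treatment, from which CD8+ T cells were isolated by FACS once a tumor measured 1.5 cm across. PyMT is a polyoma virus oncogene that drives mammary tumors in mice, and neither its promoter nor the form of the S1PR4 allele is given in the sources used here. No label says that the 3 libraries of a group came from separate animals, so p-values measure the spread between libraries, part of which may be technical. In whole colon, fewer cells of a type and less RNA per cell cannot be told apart.

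Colon libraries held 7304082 to 7919107 counts in the KO group and 7492925 to 8652561 in the WT group. S1pr4, the gene named by the genotype, had 154, 162 and 118 counts in the 3 libraries labelled KO, against 61, 47 and 25 in those labelled WT. This goes against the labels for a deleted transcript, and every direction given for KO against WT in colon rests on the labels alone. Xist, an RNA made from the inactive X chromosome, stood at 515 CPM (counts per 1000000, scaled by TMM) or more in KO libraries 2 and 3 and in WT library 1, and at 6.75 CPM or less in KO library 1 and WT libraries 2 and 3, which instead held the Y-linked Ddx3y. The libraries are called Xist-high and Y-linked below. Each colon group held both kinds, so its 3 libraries did not all come from 1 animal. WT library 1 also stood apart in the keratins themselves, so values are given by library and, where leaving it out moved them, also without it.

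The type of a keratin shows in the position of its gene. Of the 46 members, 24 lie on chromosome 11 between 99232761 and 100269871 (mm10), all of them type I. The other 22 lie on chromosome 15 between 101347444 and 102032027, and comprise 21 type II genes and Krt18, the sole type I gene there. A RefSeq promoter (GRCm38.p6) was matched for 31 of the 46, giving 32 windows of the 150 bases before a start site, and these 4 stand for a simple keratin, a skin keratin, a keratin of moist linings and a hair keratin whose values follow. Capitals mark TATAAA, the core of a TATA box, and TTTATG, a core bound by Cdx factors of the gut, searched on both strands, so that the second also reads CATAAA.

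Krt18, chr15:102028066-102028215, + strand: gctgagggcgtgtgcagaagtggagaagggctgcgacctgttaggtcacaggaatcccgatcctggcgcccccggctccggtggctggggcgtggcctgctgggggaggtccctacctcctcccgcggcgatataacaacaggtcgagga

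Krt10, chr11:99389365-99389514, - strand: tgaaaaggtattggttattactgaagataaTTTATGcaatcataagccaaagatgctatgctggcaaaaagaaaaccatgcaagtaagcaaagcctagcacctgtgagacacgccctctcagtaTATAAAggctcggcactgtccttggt

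Krt13, chr11:100121567-100121716, - strand: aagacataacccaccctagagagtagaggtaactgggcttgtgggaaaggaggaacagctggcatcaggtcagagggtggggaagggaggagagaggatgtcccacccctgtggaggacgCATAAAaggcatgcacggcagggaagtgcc

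Krt36, chr11:100105627-100105776, - strand: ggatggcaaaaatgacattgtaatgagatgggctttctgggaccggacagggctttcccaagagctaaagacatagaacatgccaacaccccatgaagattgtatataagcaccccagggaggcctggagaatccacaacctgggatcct

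TATAAA was present in 13 of the 32 keratin windows, against 7.57% of 32851 windows of the same length over all genes. TTTATG was present in 9 of the 32, against 6.33%. GGGCGG, the GC box of many housekeeping promoters, was present in 2, against 28.6%. TGANTCA, the AP-1 motif, was present in 1, a second start of Krt13, against 4.24%. Among the 4 windows shown, the skin gene Krt10 holds both TATAAA and TTTATG, and the windows of Krt18 and Krt36 hold none of the 4 motifs. A match is a description of the letters and was not set against binding.

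The colon expressed simple keratins at nearly the same level in every library. Per kilobase of annotated exon, the 5 genes summed to 335, 369 and 347 CPM per kb in KO colons, against 318, 367 and 342 CPM per kb in WT colons. KO minus WT was 0.04 on the log2 scale, with a pooled SD of 0.09 between libraries of a group. The groups overlapped, and the spread between libraries exceeded the difference, which was -0.02 without WT library 1. All 5 passed the filter on low counts, 4 with a fold change above 0 and 1 below, between -0.04 and 0.18 (log2), and none was called. Without WT library 1 the fold changes were 0.18 for Krt7, -0.02 for Krt8, 0.04 for Krt18, 0.01 for Krt19 and -0.09 for Krt20.

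**Figure D1:**
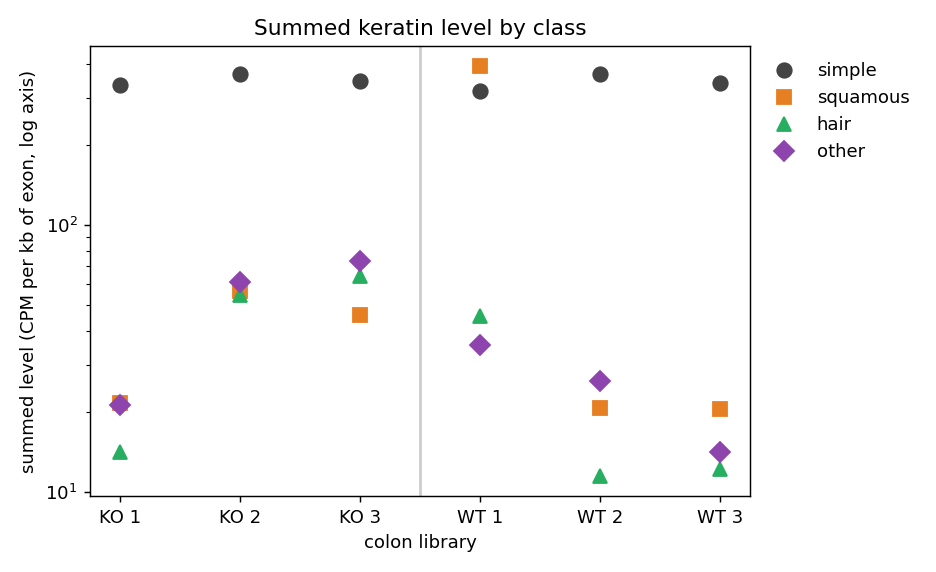
Summed level of each keratin class in the 6 colon libraries, in CPM per kb of annotated exon on a log axis. Simple keratins lie between 318 and 369 CPM per kb in every library, whereas squamous keratins reach 393 in WT library 1 and 56.8 at most elsewhere.

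Krt8 encodes the type II chain found in every simple epithelium. It had 95, 98.9 and 96.7 CPM in KO colons, against 90.7, 101 and 97.4 CPM in WT colons. Its SD over the 6 libraries was 3.65% of the mean, when the median over the 17195 tested genes was 14.3%. The log2 fold change of KO over WT was 0.01 ± 0.07 (SE, n = 3 each; edgeR quasi-likelihood test, adjusted p = 0.985). A processed copy, Krt8-ps, has 98.6% identity to Krt8 over 941 aligned bases and took 200 to 214 counts in KO and 203 to 221 in WT libraries, so part of the Krt8 reads may be counted there.

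Krt18, the type I partner of Krt8, had 130, 144 and 145 CPM in KO colons, against 121, 146 and 129 CPM in WT colons. The ranges overlapped, with WT library 1 the lowest of the 6. The fold change was 0.08 ± 0.09 (SE, log2; edgeR adjusted p = 0.873). Krt19, a type I keratin of ducts and gut glands that has almost no tail domain, had 158, 165 and 160 CPM in KO colons, against 146, 164 and 158 CPM in WT colons. It changed by 0.04 ± 0.06 (SE, log2; edgeR adjusted p = 0.901), again with WT library 1 lowest. Krt20, a type I keratin of mature enterocytes and goblet cells, had 179, 203 and 167 CPM in KO colons, against 171, 203 and 189 CPM in WT colons. Its fold change was -0.04 ± 0.10 (SE, log2; edgeR adjusted p = 0.949), and both the lowest and a joint highest library were in the KO group.

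Krt7, a type II keratin of ducts and glands, had 130, 171 and 166 CPM in KO colons, against 136, 144 and 133 CPM in WT colons. KO libraries 2 and 3 were above all WT libraries and KO library 1 was below them. The fold change of 0.18 ± 0.11 (SE, log2) was the widest among simple keratins and was not called (edgeR adjusted p = 0.829). Between Xist-high libraries KO over WT was 0.31 and between Y-linked libraries -0.09 (log2), with 1 or 2 libraries on a side.

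Per kilobase the order of the simple keratins was Krt20 and Krt18, then Krt19, then Krt8, then Krt7. Krt20 stood at 86.6 to 106 CPM per kb in KO and 88.9 to 105 in WT colons, and Krt18 at 90.6 to 101 in KO and 84.1 to 101 in WT colons, so these neighbours did not differ beyond their spread. Krt19 lay at 85.1 to 88.8 CPM per kb in KO and 78.9 to 88.4 in WT colons, below Krt18 and Krt20 in every library, though in KO library 3 Krt20 stood at 86.6 and Krt19 at 86.5. Krt8 was lower in every library, at 48.5 to 50.5 CPM per kb in KO and 46.3 to 51.6 in WT colons. Krt7 was lowest, at 18.4 to 24.2 in KO and 18.8 to 20.4 in WT colons, over 7049 annotated exon bases that include retained intron sequence. Before division by length Krt7 was above Krt8, at a mean of 147 against 96.6 CPM over the 6 libraries. The place of Krt7 and the level of type II over type I therefore rest on the length taken. The level of type II over type I simple keratins was -2.00, -1.98 and -1.91 (log2) in KO colons, against -1.94, -2.04 and -1.99 in WT colons. The ratio of Krt8 to Krt18 was 0.535, 0.504 and 0.49 in KO colons, against 0.551, 0.509 and 0.554 in WT colons.

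The counts of the most abundant keratins sat close to a ceiling in the tables. No gene in any colon library exceeded 0.973 counts per base of exon, and the highest gene of each library reached 0.919 to 0.936 in KO and 0.951 to 0.973 in WT. Krt18 had 0.71 to 0.759, Krt19 0.635 to 0.682 and Krt20 0.636 to 0.798 counts per base over the 6 libraries. Of 30212 genes with an exon length, 35 had a mean as high as the lowest of these 3. Krt8 averaged 0.383 and Krt7 0.161 counts per base, against a median of 0.0716 over tested genes. The part of such a limit in the even levels of simple keratins was not tested.

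**Figure D2:**
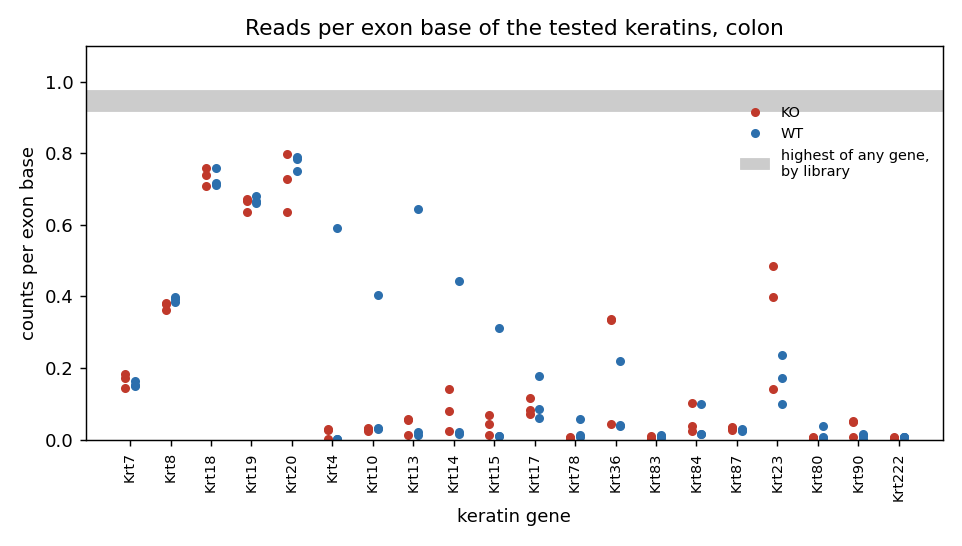
Counts per base of annotated exon for the 20 tested colon keratins, KO libraries as red points at left and WT libraries as blue points at right of each gene, with a grey band over the highest value of any gene by library (0.919 to 0.973). Krt18, Krt19 and Krt20 lie nearest the band, and WT library 1 is the highest point of Krt4, Krt10, Krt13, Krt14 and Krt15.

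Squamous keratins were present in force in 1 library, WT library 1, and low in the other 5. Summed per kilobase they stood at 21.6, 56.8 and 46 CPM per kb in KO colons, against 393, 20.6 and 20.5 CPM per kb in WT colons. In WT library 1 they made up 49.6% of the whole keratin level and exceeded the simple keratins by 0.31 on the log2 scale. In the other libraries they made up 5.51%, 10.5% and 8.66% in KO and 4.83% and 5.27% in WT. The part of the ceiling on counts per base, and of the exon length taken for Krt7, in these shares was not tested. KO minus WT of the squamous level was -0.52 (log2, pooled SD 1.81) over all libraries and 0.90 without WT library 1. The log2 ratio to simple keratins went likewise, -0.55 (pooled SD 1.87) and 0.92 without that library. Of the 16 squamous keratins, 13 had their highest CPM in WT library 1, as did 18.3% of the 17195 tested genes and 0 of the 5 simple keratins. The bases differ, because only 7 of the 16 passed the filter, and Krt2, for example, had 1 count in total.

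No keratin was called between KO and WT colons. Of the 46, 20 passed the filter and were tested, 9 with a fold change above 0 and 11 below, with a median of -0.09 (log2) beside 0.00 over all 17195 tested genes. The edgeR quasi-likelihood test, at an adjusted p of 0.05, called 0 of the 20 keratins and 0% of all tested genes. The adjusted p of the keratins ran from 0.829 to 0.985, and the lowest of any gene was 0.641. DESeq2 also called 0 keratins, and 0.105% of all genes. At an unadjusted p under 0.05, edgeR picked 1 keratin, Krt78, and 5.06% of all genes. Krt78 was also the 1 keratin of 20 whose KO and WT libraries did not overlap, as in 9.58% of all genes. All 7 tested squamous keratins had fold changes below 0, between -3.18 and -0.15 with a median of -2.30. Without WT library 1 their direction was split: Krt4, Krt13, Krt14, Krt15 and Krt17 were above 0 and Krt10 and Krt78 below.

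**Figure D3:**
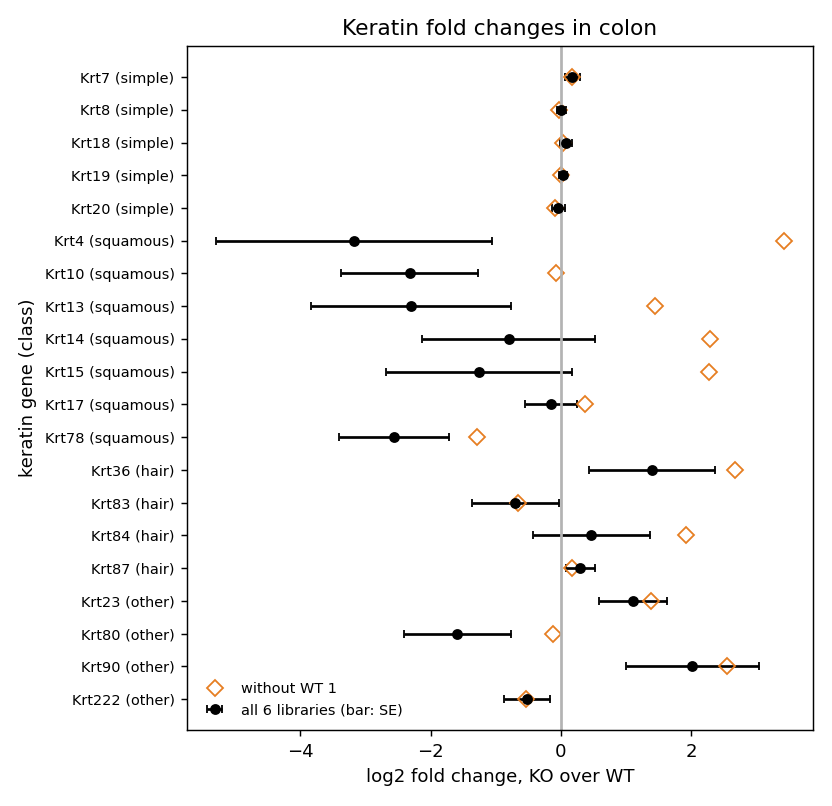
Log2 fold change of KO over WT for the 20 tested colon keratins: black points are the edgeR estimate over all 6 libraries with its SE, and orange diamonds the estimate without WT library 1. Squamous keratins lie below 0 with all libraries, and Krt4, Krt13, Krt14, Krt15 and Krt17 lie above 0 without that library.

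The basal pair is described first. Krt5, the type II chain of basal keratinocytes, had 3, 1 and 2 counts in KO colons, against 1054, 1 and 1 counts in WT colons. WT library 1 held 99.2% of all Krt5 counts, and the other 5 libraries were at or under 3 counts. Krt5 did not pass the filter and was not tested. Its partner Krt14 was less exclusive, with 5.36, 32.9 and 19.3 CPM in KO colons, against 92, 4.68 and 3.25 CPM in WT colons. KO libraries 2 and 3 were above WT libraries 2 and 3 while Krt5 was not. The fold change of Krt14 was -0.80 ± 1.33 (SE, log2; edgeR adjusted p = 0.915), and 2.29 without WT library 1. Krt15, a type I basal keratin without a fixed partner that also marks hair follicle stem cells, had 2.55, 10.3 and 16.2 CPM in KO colons, against 65.1, 2.14 and 1.88 CPM in WT colons, in the same order of libraries as Krt14 but for KO libraries 2 and 3. Its fold change was -1.25 ± 1.43 (SE, log2; edgeR adjusted p = 0.88), and 2.28 without WT library 1. Per kilobase, Krt5 over Krt14 was 0.0572, 0.00321 and 0.0113 in KO colons, against 1.08, 0.0229 and 0.0308 in WT colons, so the pair stood near parity in WT library 1 and Krt14 outweighed Krt5 elsewhere.

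The skin pair of the layers above followed. Krt1, the type II chain of the upper epidermis, had 0.255, 0.265 and 0.136 CPM in KO colons, against 94.5, 0 and 0 CPM in WT colons, so that WT library 1 held 99.4% of its counts. Krt1 was not tested. Krt10, its type I partner, had 6.51, 8.73 and 8.44 CPM in KO colons, against 101, 9.23 and 7.63 CPM in WT colons. Outside WT library 1 the 5 libraries lay close together. The fold change of -2.32 ± 1.05 (SE, log2) was not called (edgeR adjusted p = 0.829) and was -0.08 without WT library 1. Krt1 over Krt10 per kilobase was 0.0188, 0.0145 and 0.00772 in KO colons, against 0.447 in WT library 1 and 0 in the other two WT libraries. Krt2, Krt9, Krt12, Krt24, Krt76 and Krt79, further squamous keratins of skin, cornea and mucosa, had 0 to 9 counts in any library.

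Keratins of moist linings were also highest in WT library 1, but KO libraries 2 and 3 came next. Krt4, a type II chain of the layers above the basal one, had 0.255, 7.54 and 8.85 CPM in KO colons, against 149, 0.669 and 0.375 CPM in WT colons. Its fold change was -3.18 ± 2.12 (SE, log2; edgeR adjusted p = 0.829), and 3.43 without WT library 1. Krt13, its type I partner, had 2.68, 14 and 13.2 CPM in KO colons, against 139, 4.81 and 2.63 CPM in WT colons. It had a fold change of -2.30 ± 1.53 (SE, log2; edgeR adjusted p = 0.829), and 1.44 without WT library 1. The per-kilobase ratio of Krt4 to Krt13 was 0.0813, 0.459 and 0.572 in KO colons, against 0.917, 0.119 and 0.122 in WT colons. The pair stood near parity in WT library 1 alone. The ratios of KO library 1 and of WT libraries 2 and 3 rest on 2, 5 and 3 counts of Krt4.

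Krt78, a type II keratin of stratified epithelia, differed in pattern from the pair. It had 2.81, 1.85 and 0.817 CPM in KO colons, against 23.3, 3.74 and 5.25 CPM in WT colons. Every KO library was below every WT library. The fold change was -2.56 ± 0.85 (SE, log2), with an edgeR p of 0.023 before and 0.829 after adjustment, and -1.29 without WT library 1. The DESeq2 adjusted p was 0.44.

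Among keratins of wounded or fast-growing epithelium, Krt17, a type I chain also made in hair follicles, was present in every library. It had 16.5, 23.8 and 15.1 CPM in KO colons, against 32.6, 12.3 and 16.4 CPM in WT colons. WT library 1 was the highest, and the other 5 overlapped. The fold change was -0.15 ± 0.40 (SE, log2; edgeR adjusted p = 0.948), and 0.37 without WT library 1. Krt16, a type I keratin of wound edges and of palm and sole, had 0.766, 1.06 and 0.272 CPM in KO colons, against 4.49, 0.267 and 0.25 CPM in WT colons, and was not tested. Krt6a and Krt6b, the type II partners of Krt16 and Krt17, fall outside the symbol rule by their final letter. Krt6a had 0, 50 and 22 counts in KO colons, against 609, 5 and 1 in WT colons. Krt6b had 1, 0 and 3 counts in KO colons, against 358, 1 and 0 in WT colons, and Krt33b had at most 1 count in a library.

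**Figure D4:**
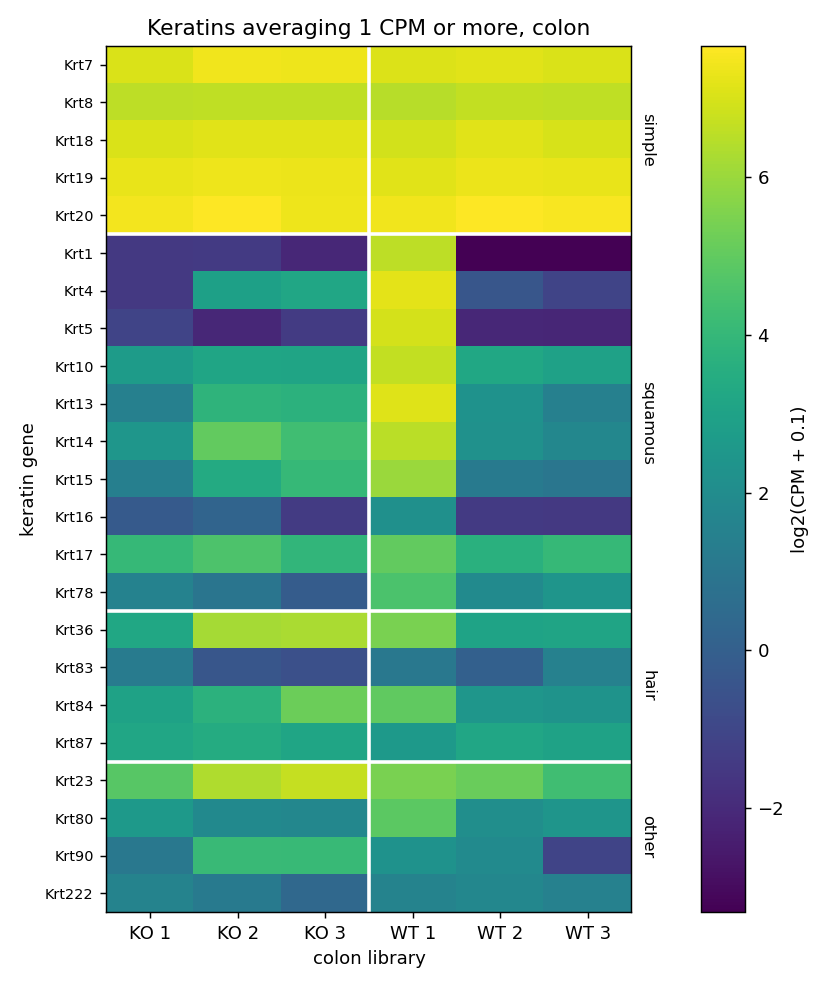
Log2(CPM + 0.1) of every colon keratin with a mean of at least 1 CPM, rows grouped as simple, squamous, hair and other, columns the 3 KO and then the 3 WT libraries. WT library 1 stands out in the squamous block, KO libraries 2 and 3 share higher Krt4, Krt13, Krt14, Krt15, Krt36, Krt23 and Krt90 than KO library 1, and the simple block is even.

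Of the 19 hair and nail keratins, 4 were tested. Krt36, a type I hair keratin also found in tongue and nail, had 9.19, 73.7 and 76.4 CPM in KO colons, against 43.5, 8.16 and 8.5 CPM in WT colons. The 3 Xist-high libraries were all above the 3 Y-linked ones, and both groups held libraries of each kind. Its fold change was 1.40 ± 0.97 (SE, log2; edgeR adjusted p = 0.834), 2.68 without WT library 1, and 0.49 with Xist status as a covariate (edgeR adjusted p = 1). Krt84, a type II hair keratin, had 8.04, 13.1 and 36.6 CPM in KO colons, against 31.2, 5.35 and 4.88 CPM in WT colons, with the same separation by Xist. Its fold change was 0.47 ± 0.90 (SE, log2; edgeR adjusted p = 0.926), 1.93 without WT library 1 and -0.38 without KO library 3. Krt84 over Krt36 per kilobase was 0.554, 0.113 and 0.304 in KO colons, against 0.454, 0.415 and 0.363 in WT colons.

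Krt87, a type II hair keratin, was even, with 9.06, 10.6 and 8.58 CPM in KO colons, against 6.15, 8.96 and 7.88 CPM in WT colons. It changed by 0.30 ± 0.22 (SE, log2; edgeR adjusted p = 0.838), and its value is uncertain because 980 bases of it have 96% identity to Gm49425 and 397 bases 97.2% identity to Krt81, which had at most 1 count in a library. Krt83, likewise a type II hair keratin with 95.1% identity to Krt81, had 2.3, 0.661 and 0.545 CPM in KO colons, against 2.01, 0.936 and 2.75 CPM in WT colons (fold change -0.70 ± 0.67, SE, log2; edgeR adjusted p = 0.865). The 15 hair keratins not tested had at most 25 counts in a library. Krt75, a type II chain of the hair's companion layer, had 0, 3 and 2 counts in KO colons, against 25, 0 and 1 in WT colons. Krt71, a type II chain of the inner root sheath, had 0 counts in every KO library, against 11, 0 and 0 counts in WT libraries. Krt35, a type I hair shaft keratin, had 1, 3 and 6 counts in KO colons, against 19, 1 and 0 in WT colons.

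Of the keratins outside these classes, Krt23, a type I keratin induced in injured mouse liver, was the most abundant. It had 28.3, 82.5 and 103 CPM in KO colons, against 43.8, 36 and 19.3 CPM in WT colons. KO libraries 2 and 3 were above every WT library and KO library 1 was below 2 of them. The fold change was 1.11 ± 0.52 (SE, log2), with an edgeR p of 0.075 before and 0.829 after adjustment. Krt90, a type II gene, had 2.04, 17.2 and 16.6 CPM in KO colons, against 4.73, 3.74 and 0.375 CPM in WT colons. Its fold change of 2.02 ± 1.02 (SE, log2) was the highest of the 20 and was not called (edgeR adjusted p = 0.829). Without WT library 1 the fold change was 1.38 for Krt23 and 2.56 for Krt90. With Xist status as a covariate these values were 0.58 for Krt23 and 1.02 for Krt90 (edgeR adjusted p = 1 for both). Krt80, a type II keratin of many epithelia, had 6, 3.57 and 3.27 CPM in KO colons, against 29.3, 4.15 and 5.25 CPM in WT colons (fold change -1.59 ± 0.82, SE, log2; edgeR adjusted p = 0.829), and its fold change was -0.12 without WT library 1. Krt222 had 2.94, 2.12 and 1.23 CPM in KO colons, against 2.96, 3.34 and 2.75 CPM in WT colons (fold change -0.52 ± 0.35, SE, log2; edgeR adjusted p = 0.829). Krt42 and Krt88 had at most 3 counts in a library.

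Both patterns across libraries were counted after the values were seen, as descriptions. In 7 of the 20 tested keratins (Krt4, Krt10, Krt13, Krt14, Krt15, Krt78 and Krt80) WT library 1 was more than 2-fold above every other library, as in 0.82% of all tested genes. In 8 of the 20 (Krt4, Krt13, Krt14, Krt15, Krt23, Krt36, Krt84 and Krt90) every Xist-high library was above every Y-linked one, as in 8.29% of all tested genes. Krt4, Krt13, Krt14 and Krt15 showed both. Between the Xist-high libraries alone, KO minus WT of the squamous level was -2.94 (log2), with WT library 1 the sole WT library. Between the Y-linked libraries alone it was 0.08, with KO library 1 the sole KO library. The KO effect in Xist-high libraries less that in Y-linked libraries ran from -3.45 for Krt80 to 1.83 for Krt90 among tested keratins (log2). With WT library 1 or KO library 1 alone on a side, no conclusion is drawn from it. Any keratin with at least 1 count numbered 34, 33 and 33 in KO colons, against 42, 26 and 28 in WT colons. Keratins with at least 10 counts numbered 19, 19 and 17 in KO colons, against 26, 18 and 18 in WT colons.

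Most genes of squamous epithelium other than keratins were highest in WT library 1. This held for 21 of the 25 on the list, tested or not, and for 18.3% of all tested genes. Sfn, Serpinb5, Ly6d and Dsc3 were instead highest in a KO library. The 25 summed to 182, 287 and 261 CPM per kb in KO colons, against 600, 213 and 194 CPM per kb in WT colons. In WT library 1 none of them was at 0, and in the others 9, 11 and 9 were at 0 in KO and 11 and 10 in WT. Trp63, which encodes the p63 factor that defines basal cells, had 2, 1 and 0 counts in KO colons, against 234, 0 and 0 in WT colons. Flg, which encodes the filaggrin of the cornified layer, had 0 counts in every KO library, against 247, 0 and 0 counts in WT libraries. Of the 13 tested, 3 were higher and 10 lower in KO, with a median of -0.99, and none was called. The smallest p were those of Lor at -2.53 ± 1.21, Dmkn at -1.75 ± 0.84 and Col17a1 at -2.54 ± 1.62 (SE, log2; edgeR adjusted p = 0.829 each). Lor had 4.21, 1.85 and 3.81 CPM in KO colons, against 50.7, 3.21 and 3.13 CPM in WT colons. Col17a1 had 1.28, 4.76 and 5.72 CPM in KO colons, against 64.9, 2.41 and 0.5 CPM in WT colons. Dmkn was likewise highest in WT library 1, at 50.2 CPM. In all 3 genes the KO libraries overlapped WT libraries 2 and 3. Fold changes of this list without WT library 1 are not given.

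In 8 of these 25 genes, as in 21.9% of all tested genes, KO libraries 2 and 3 were both above KO library 1 and WT libraries 2 and 3, the order seen for Krt14. Dsg3, a desmosomal cadherin of squamous epithelium, was 1 of the 8, with 2, 47 and 45 counts in KO colons, against 340, 6 and 2 in WT colons, whereas Trp63 and Flg were not among them. S100a8, a neutrophil and stressed epithelium gene, had 0.894, 18.8 and 16.5 CPM in KO colons, against 7.93, 2.54 and 0.5 CPM in WT colons, thus also above in every Xist-high library. Their part in the keratin values was not tested. Skeletal muscle genes, which a sample of the anal end could hold, summed to 81.5, 80.4 and 58.5 CPM per kb in KO colons, against 129, 92.5 and 99.2 CPM per kb in WT colons, with 0, 2 and 5 of 15 at 0 in KO and 2, 3 and 2 in WT. Des, the highest of the 15, is also on the smooth muscle list given below. It had 156 to 232 CPM in KO and 227 to 228 CPM in WT colons. WT library 1 was the highest library in 10 of the 15, in 8 of 12 smooth muscle genes and in 18.3% of all tested genes. The 7 tested skeletal muscle genes were all below 0, at a median of -0.69, and edgeR called none. DESeq2 called 1, Acta1, a skeletal muscle actin (log2 fold change -1.48, adjusted p = 1.74e-05). The edgeR values were -1.48 ± 0.21 for Acta1, -2.39 ± 0.99 for Myh2 and -0.69 ± 0.34 for Actn3 (SE, log2; edgeR adjusted p = 0.829 each). How far squamous tissue in the sample accounts for the keratin values was not tested.

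Colon epithelium genes other than keratins were fairly even in sum, which was lowest in WT library 1. Some single genes spread wider, such as Slc26a3 at 154 to 295 CPM in KO and 253 to 318 CPM in WT colons. The 20 summed to 1540, 1650 and 1490 CPM per kb in KO colons, against 1380, 1700 and 1570 CPM per kb in WT colons, and none was at 0 in any library. Of these, 13 were higher and 7 lower in KO with a median of 0.02, and none was called. Slc26a3, Aqp8 and Tspan8 had the smallest p, at -0.31 ± 0.24, -0.29 ± 0.25 and 0.08 ± 0.09 (SE, log2; edgeR adjusted p = 0.845, 0.857 and 0.88). Cdx2, a factor of intestinal identity, had 126, 161 and 115 CPM in KO colons, against 44.9, 162 and 120 CPM in WT colons, lowest in WT library 1.

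Genes that anchor or link keratin filaments to desmosomes and hemidesmosomes were abundant in each library. The 15 summed to 513, 507 and 504 CPM per kb in KO colons, against 557, 529 and 518 CPM per kb in WT colons. Of the 15 tested, 2 were higher and 13 lower in KO, with a median of -0.08, and none was called. Plec, which encodes the linker plectin, stood at -0.30 ± 0.15, Evpl, which encodes envoplakin of the cornified envelope, at -0.39 ± 0.21, and Dsc2, which encodes a desmosomal cadherin, at 0.20 ± 0.12 (SE, log2; edgeR adjusted p = 0.829 each). Other tissue lists gave no call by edgeR either. Smooth muscle had 0 higher and 12 lower of 12 (median -0.24), with Synm at -0.70, Myocd at -1.34 and Mylk at -0.33. Adipocytes had 7 higher and 1 lower of 8 (median 1.06), with Cidec at 0.98, Retn at 1.55 and Adipoq at 1.42, and leukocytes 6 higher and 4 lower of 10 (median 0.07), with Lyz2 at 0.12, S100a8 at 1.71 and Itgam at 0.25 (all log2).

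Krt4 was the keratin analysed in the CD8 libraries. The 357 genes listed there summed to 17407 to 26702 counts in the KO group and 44811 to 183504 in the WT group, which is not the depth of the libraries. None of the 10 genes of the leukocyte list, which includes Cd8a and Cd3e, is among those 357. The label of the sort could therefore not be checked against them. Krt4 had 6, 0 and 7 counts in KO libraries, against 46, 156 and 27 counts in WT libraries. As CPM over the listed genes these were 228, 0 and 474 in KO, against 717, 707 and 574 in WT. Every KO library was below every WT library, as in 11.9% of the 352 tested genes. A count of 0 in KO library 2 allows up to 200 CPM, taken as 3 counts, and this covers counting error alone. The fold change of -1.53 ± 0.51 (SE, log2; n = 3 each) had an edgeR p of 0.00747 before and 0.114 after adjustment. It was not called, when 2.56% of the tested genes were. Scaling by total counts instead of TMM gave -1.86 and adjusted p = 0.0446, which passed, and over all alternatives the adjusted p ran from 0.0446 to 0.335.

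**Figure D5:**
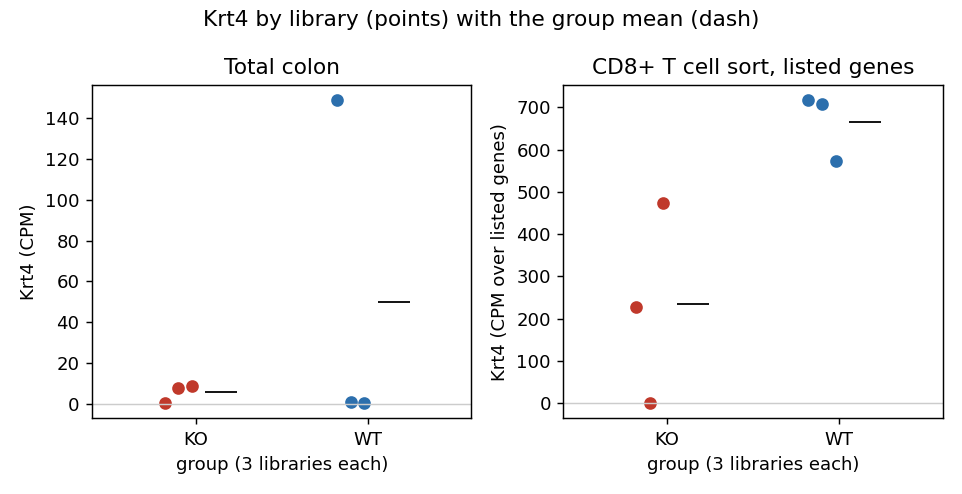
Krt4 in colon (CPM, left) and in the CD8 libraries (CPM over the listed genes, right) by group, each point a library and each dash the group mean, on linear axes of separate scale. In colon WT library 1 stands alone at 149, and in the CD8 libraries the KO points at 0 to 474 lie below the WT points at 574 to 717.

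Genes of mammary epithelium, the tissue of the tumor, are given because Krt4 is an epithelial gene in a T cell sort. Of the 20 on the list, 11 are among the 357 genes. Cdh1, Csn2, Csn3, Wap, Lcn2, Spint1, Esr1, Acta2 and Oxtr are not. The 11 in the tables summed to 36400, 30900 and 35600 CPM per kb in KO, against 31000, 25800 and 41900 in WT, and none was at 0. Of 10 tested, 5 were higher and 5 lower in KO with a median of -0.01, and none was called, Lalba standing at -1.25 ± 0.59, Cldn4 at 0.45 ± 0.25 and Epcam at 0.56 ± 0.34 (SE, log2; edgeR adjusted p = 0.292, 0.312 and 0.363). Of the colon epithelium list, Tspan8, a tetraspanin of epithelial cells, fell by 1.71 ± 0.40 (SE, log2; edgeR adjusted p = 0.0222), with 343, 200 and 203 CPM in KO, against 826, 988 and 723 in WT. It was the 1 call among the 4 tested genes of that list. The 4 anchor genes tested (Jup, Dsg2, Eppk1 and Itgb4) were above 0 without a call, at a median of 0.33, Dsg2 standing at 0.73 ± 0.24 (SE, log2; edgeR adjusted p = 0.114). Sprr1a, the sole squamous gene listed, stood at -0.04 (log2; edgeR adjusted p = 0.966). The part of epithelial RNA in the Krt4 value was not tested.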

How the data were processed

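RNA was sequenced from 6 whole-colon samples and 6 sorted CD8+ T cell samples, and the authors deposited read counts per gene for each. Per the labels' protocols the CD8 libraries came from a stranded total RNA kit and the colon libraries from a core facility. Per the submitters' processing notes STAR, TopHat2, RSEM, HTSeq and DESeq2 and the builds mm10 and GRCm38 were used, with no version or order given. Here each material was fitted alone with edgeR 4.0.16 (R 4.3.3) on the 30263 or 357 listed genes: filterByExpr at a minimum count of 10, TMM, robust quasi-likelihood test of KO against WT without a block, Benjamini-Hochberg adjustment over all tested genes, threshold 0.05. DESeq2 1.42.0 was an alternative. The fit was tested on simulated counts.

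CPM are counts per 1000000 scaled by TMM, and CPM per kb divides by the union of annotated exons in GENCODE vM21, which matched 30212 of 30263 and 356 of 357 identifiers and may not be the annotation used upstream. Near-identical copies were sought with BLAST 2.17.0 (95% identity or more over 200 bases). Summed class levels are described without a test. Xist-high means an Xist level above 100 CPM. Replicates of a group differed by more than sampling noise (lowest chi-square per degree of freedom 2.71). The members, classes and lists were chosen with earlier results of these data known. Every keratin passing the filter was named, those with a mean of 1 CPM or more were given by library, and of each other list the 3 tested members with the smallest p; Trp63, Flg, Cdx2, Dsg3, S100a8, Krt75, Krt71 and Krt35 were picked after their values were seen.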

Additional observations from a re-analysis of the deposited data

How the results depend on the processing

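No keratin was called in colon under any of the alternatives run, which were other scalings, no filter or a mean of 50 counts, DESeq2, a replicate block, Xist status as a covariate and each library left out. Of 269 alternative values over 21 keratin fold changes, 254 kept their direction and side of the threshold, 14 reversed and 1 passed it, Krt4 in CD8 with total counts. Reversals came with a library left out, where the range was -3.76 to 3.43 for Krt4, -2.84 to 1.44 for Krt13, -1.44 to 2.29 for Krt14, -1.83 to 2.28 for Krt15, -0.41 to 0.37 for Krt17, -0.38 to 1.93 for Krt84, -0.12 to 0.03 for Krt20 and -0.02 to 0.04 for Krt8 (all colon). With the replicate block, Krt4 was 0.96, Krt13 0.06, Krt14 0.97 and Krt15 0.81. Same-numbered libraries showed no steady shared deviation (correlations of -0.0391, 0.214 and -0.233 in colon and -0.023, -0.0988 and 0.218 in CD8). Differently numbered ones reached 0.33 in colon and 0.307 in CD8. With 3 libraries a group, these correlations cannot exclude a pairing by number. The block left colon at 0 calls and gave 12 in CD8. DESeq2 called 18 colon genes, none a keratin, and gave no p for Krt4, Krt10 and Krt13. Without the filter, 20 of 46 keratins were above 0. CD8 calls numbered 9 with TMM, 5 with DESeq2 size factors, 24 with total counts (1 of them Krt4), 4 at a mean of 50 counts, 18 with DESeq2, and 2 to 19 with a library left out; at a mean of 50 counts Krt4 had no value. KO minus WT of the simple level was 0.17 within Xist-high and -0.08 within Y-linked libraries, of the squamous level -2.94 and 0.08 and of the squamous to simple ratio -3.11 and 0.16 within the same sets, of the type II to type I ratio 0.08 without division by length, and of the CD8 keratin level -2.54 to -0.92 with a library left out. Principal transcript lengths and adding Krt8-ps to Krt8, both chosen after seeing the data, moved no KO minus WT difference beyond its spread. The levels themselves and their order are not given with these settings. The cause of the changes across alternatives was not tested. Precision is limited by 3 libraries a group and, for untested keratins, by counts near 0.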
